A study of Mus musculus with 4 samples.

Results

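The 10 genes described here, Irf8, Batf3, Id2, Nfil3, Irf4, Klf4, Zeb2, Tcf4, Zbtb46 and Bcl6, encode transcription factors known to set or oppose dendritic cell (DC) lineages. They were taken by gene symbol, 10 of the 55385 genes in the count matrix, and each was detected in both libraries. The samples were wild-type C57BL6 mouse spleen in steady state, profiled by CITE-seq, a single-cell method that reads both RNA and surface antibodies tagged with oligonucleotides, each molecule counted once by its unique molecular identifier (UMI). Per the labels, negative selection enriched DCs from 2 mice, and a sort on CD64, CD11c, MHC class II, XCR1 and CD172a then took conventional DCs of type 1 (cDC1) and of type 2 (cDC2) beside unselected live cells, so class sizes follow the sort. There was no other genotype, treatment or time among the samples used here, and every comparison is between classes of cells within the same libraries. The labels give replicates 1 and 2 and do not say whether each came from its own mouse, so every p-value rests on how far 2 libraries vary, and that variation may be technical.

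As background, IRF8 with BATF3 is known to drive and hold the cDC1 fate, with NFIL3 and ID2 acting early on the same side. ID2 has no DNA-binding domain of its own and sequesters E proteins such as TCF4, which drives plasmacytoid DCs (pDCs) together with ZEB2. IRF4 and KLF4 are known for cDC2 and their functions, ZBTB46 marks conventional DCs over monocytes and pDCs, and BCL6 is a repressor that cDC1 depend on. In maturation a conventional DC of either lineage gains CCR7, the chemokine receptor for migration to T cell zones, and fascin (Fscn1), an actin-bundling protein.

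Classes were gated on surface antibodies and marker UMIs, never on the 10 genes. Cells with at least 2 XCR1 antibody UMIs and at least 2 times their CD172a count were taken as cDC1, and the reverse as cDC2. Within each lineage, step 0 had no Ccr7 or Fscn1 UMI and is called immature. Step 1 had 1 to 4 Ccr7 UMIs and at most 1 of Fscn1, step 2 at least 5 of Ccr7 and at most 4 of Fscn1, and step 3, called late mature, at least 5 of both. The steps order cells by marker level and not by time. Immature cDC1 numbered 5374 and 8155 cells in libraries 1 and 2, immature cDC2 1352 and 1523, late mature cDC1 106 and 144, and late mature cDC2 37 and 47. Siglech-high cells (pDCs, 69 and 57) and Csf1r-high cells (33 and 43) completed the set, with T cells (841 and 740) as a reference for RNA shed by other cells.

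Levels are CPM, the UMIs of a gene per 1000000 RNA UMIs summed over the cells of a class and library, and pairs of values are libraries 1 and 2 in that order. The libraries held 99617992 and 129565040 RNA UMIs, and class sums ran from 172512 UMIs in late mature cDC2 of library 1 to 68895248 in immature cDC1 of library 2. The median cell had 9004 and 8041 UMIs in immature cDC1 against 4017 and 3873 in immature cDC2, so steps set in UMIs were not matched between lineages. Ccr7 stood at 119 and 127 CPM at step 1 of cDC1 and 414 and 374 at step 1 of cDC2, whereas at step 3 it was 4728 and 4570.5 in cDC1 and 4875 and 4248 in cDC2. Summed over 12 cDC1 markers, the level was 3937 and 4231 CPM in immature cDC1, 1118 and 1217 in immature cDC2, 1063 and 1468 in late mature cDC1 and 516 and 829.7 in late mature cDC2. Over 12 cDC2 markers it was 32.1 and 35.2 CPM in immature cDC1, 2233 and 2190.2 in immature cDC2, 148 and 173 in late mature cDC1 and 1426 and 1455 in late mature cDC2. The cDC1 list's sum in T cells was 660.0 and 798 CPM, of which Cd8a, a gene that T cells also express, made up 220.4 and 252. Xcr1 stood at 49.3 and 68.6 CPM in T cells against 483 and 559 in immature cDC1, and Clec9a at 34.7 and 49.4 against 288 and 329. Summed over 5 neutrophil markers, immature cDC2 held 2224 and 1849 CPM against 139 and 173 in immature cDC1. Late mature cDC2 held 58.0 and 42.7 CPM. The libraries lay far apart at step 1 of cDC2, with 42.1 and 2362 CPM, and in T cells, with 2707 and 30.2. The part of such RNA in the comparisons of these classes was not tested. Irf8 in T cells reached 263 and 352 CPM, Id2 239 and 293 and Batf3 22.9 and 49.4.

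Irf8 lies at chr8:120736358-120756694, Batf3 at chr1:191098414-191108943, Id2 at chr12:25093799-25096092 and Nfil3 at chr13:52967209-52982878 (GRCm38). The 250 bases before the RefSeq start of each (GRCm38.p6, 5′ to 3′ on the gene's strand) are shown for the 4 factors known for the cDC1 side, each of which also changed at some step of maturation in both lineages. They span chr8:120736108-120736357 (plus strand), chr1:191098164-191098413 (plus), chr12:25096093-25096342 (minus) and chr13:52981040-52981289 (minus), and capitals mark matches to 7 motifs searched on both strands. The Nfil3 start listed lies inside the span of the gene. For Irf8 a further RefSeq start is listed, and its stretch is not shown.
Irf8: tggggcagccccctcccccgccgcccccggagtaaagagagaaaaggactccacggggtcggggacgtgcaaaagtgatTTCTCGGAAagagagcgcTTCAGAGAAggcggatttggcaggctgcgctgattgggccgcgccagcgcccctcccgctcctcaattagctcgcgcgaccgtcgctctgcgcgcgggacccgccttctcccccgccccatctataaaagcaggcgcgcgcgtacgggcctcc
Batf3: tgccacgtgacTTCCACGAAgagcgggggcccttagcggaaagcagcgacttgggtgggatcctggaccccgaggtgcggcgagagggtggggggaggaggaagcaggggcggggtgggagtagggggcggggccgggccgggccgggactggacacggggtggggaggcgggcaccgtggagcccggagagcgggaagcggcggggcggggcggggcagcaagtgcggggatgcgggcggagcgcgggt
Id2: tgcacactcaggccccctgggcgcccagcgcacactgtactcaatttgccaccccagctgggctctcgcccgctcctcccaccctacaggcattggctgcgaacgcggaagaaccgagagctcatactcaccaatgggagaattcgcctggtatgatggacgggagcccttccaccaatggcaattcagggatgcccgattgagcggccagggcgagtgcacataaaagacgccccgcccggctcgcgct
Nfil3: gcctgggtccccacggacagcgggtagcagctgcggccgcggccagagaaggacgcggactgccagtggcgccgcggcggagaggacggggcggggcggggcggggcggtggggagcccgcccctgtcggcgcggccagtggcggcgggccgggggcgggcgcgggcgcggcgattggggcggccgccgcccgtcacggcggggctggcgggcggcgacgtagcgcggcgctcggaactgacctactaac
The capitals are the STAT motif TTCNNNGAA, found 2 times before Irf8, where the matches overlap no other motif, and 1 time before Batf3. That motif stood in 7.02% of the 32851 upstream stretches in the table. The interferon-stimulated response element core, GAAA and GAAA with NN between (2.98% of all stretches), the NFIL3 motif TTANGTAA (2.06%) and the NF-kB motif, GGGA and TTTCC with N between (0.356%), matched none of the 14 start sites listed for 9 of the 10 genes. The ZEB-type E-box CAGGTG (17.2%), the AP-1 motif TGANTCA (6.75%) and the ETS-IRF composite, GGAA and GAAA with NN between (2.30%), matched none of the 4 stretches shown. Of the 14 start sites the E-box matched 2, before Zbtb46 and at the Irf8 start not shown. AP-1 matched 2, before Zbtb46 and Zeb2, and the ETS-IRF composite 1, before Bcl6. The STAT motif matched 6, before Batf3, Bcl6, Irf8 and Zeb2. A match here is a match of letters, and none says only that the letters are not in this window.

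The first comparison asked which of the 10 factors separate immature cDC2 from immature cDC1. The cDC1 factors Irf8, Batf3 and Id2 and the conventional DC factor Zbtb46 were lower in cDC2. Irf4, Klf4, Zeb2, Tcf4 and Nfil3 were higher. Bcl6 did not pass the test. These 9 of 10 stand against a background of 45.1% of 10183 genes past a Benjamini-Hochberg adjusted p of 0.05 in edgeR's quasi-likelihood test, the test behind every adjusted p below. The median log2 fold change of all genes was -0.03 with TMM scaling and 0.11 with library totals alone.

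Irf8, the factor that specifies cDC1, was at 2057 and 2239 CPM in immature cDC1 and 594 and 645 in immature cDC2. The groups did not overlap, and the log2 fold change was -1.93 (SE 0.13, adjusted p = 2.1e-13). Id2, which holds E proteins off DNA, was at 812 and 953 CPM in cDC1 and 344 and 377 in cDC2 (log2 -1.43, SE 0.13, adjusted p = 6.7e-11). Batf3, the partner of IRF8, differed less, at 286 and 285 CPM in cDC1 and 220.4 and 204 in cDC2 (log2 -0.57, SE 0.15, adjusted p = 0.00322). Both cDC2 values lay under both cDC1 values for each of the 3 genes. Zbtb46, which marks conventional DCs, was at 54.6 and 58.1 CPM in cDC1 against 51.1 and 47.0 in cDC2 (log2 -0.34, SE 0.10, adjusted p = 0.00666), and with library totals alone as scaling it was not past the threshold (log2 -0.20, adjusted p = 0.109).

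On the cDC2 side Irf4, Zeb2 and Klf4 differed most. Irf4, which cDC2 need for migration and antigen presentation, was at 1.46 and 1.77 CPM in immature cDC1 and 88.7 and 92.8 in immature cDC2 (log2 5.66, SE 0.16, adjusted p = 1.9e-22). Zeb2, a repressor of the cDC1 fate, was at 2.82 and 2.16 CPM in cDC1 and 98.7 and 99.1 in cDC2 (log2 5.18, SE 0.17, adjusted p = 3.7e-21). Both genes were nearly absent from immature cDC1 and lay below their level in T cells, 17.2 and 19.5 CPM for Irf4 and 25.4 and 32.0 for Zeb2. The T cell level is therefore no floor for either gene. Klf4, a zinc-finger factor of a cDC2 subset, was at 58.8 and 58.1 CPM in cDC1 and 312 and 343 in cDC2 (log2 2.35, SE 0.14, adjusted p = 1.1e-14). Tcf4, the pDC factor, was at 22.2 and 19.1 CPM in cDC1 and 69.9 and 59.4 in cDC2 (log2 1.51, SE 0.11, adjusted p = 1.9e-12). Nfil3 differed least of those past the threshold, at 27.7 and 30.1 CPM in cDC1 and 40.5 and 38.4 in cDC2 (log2 0.31, SE 0.12, adjusted p = 0.0426), and missed it under 4 of the alternatives tried, with adjusted p from 0.0567 to 0.111. Bcl6 was at 55.0 and 67.4 CPM in cDC1 and 66.8 and 71.4 in cDC2, so its values overlapped (log2 0.04, SE 0.09, adjusted p = 0.778).

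**Figure D1:**
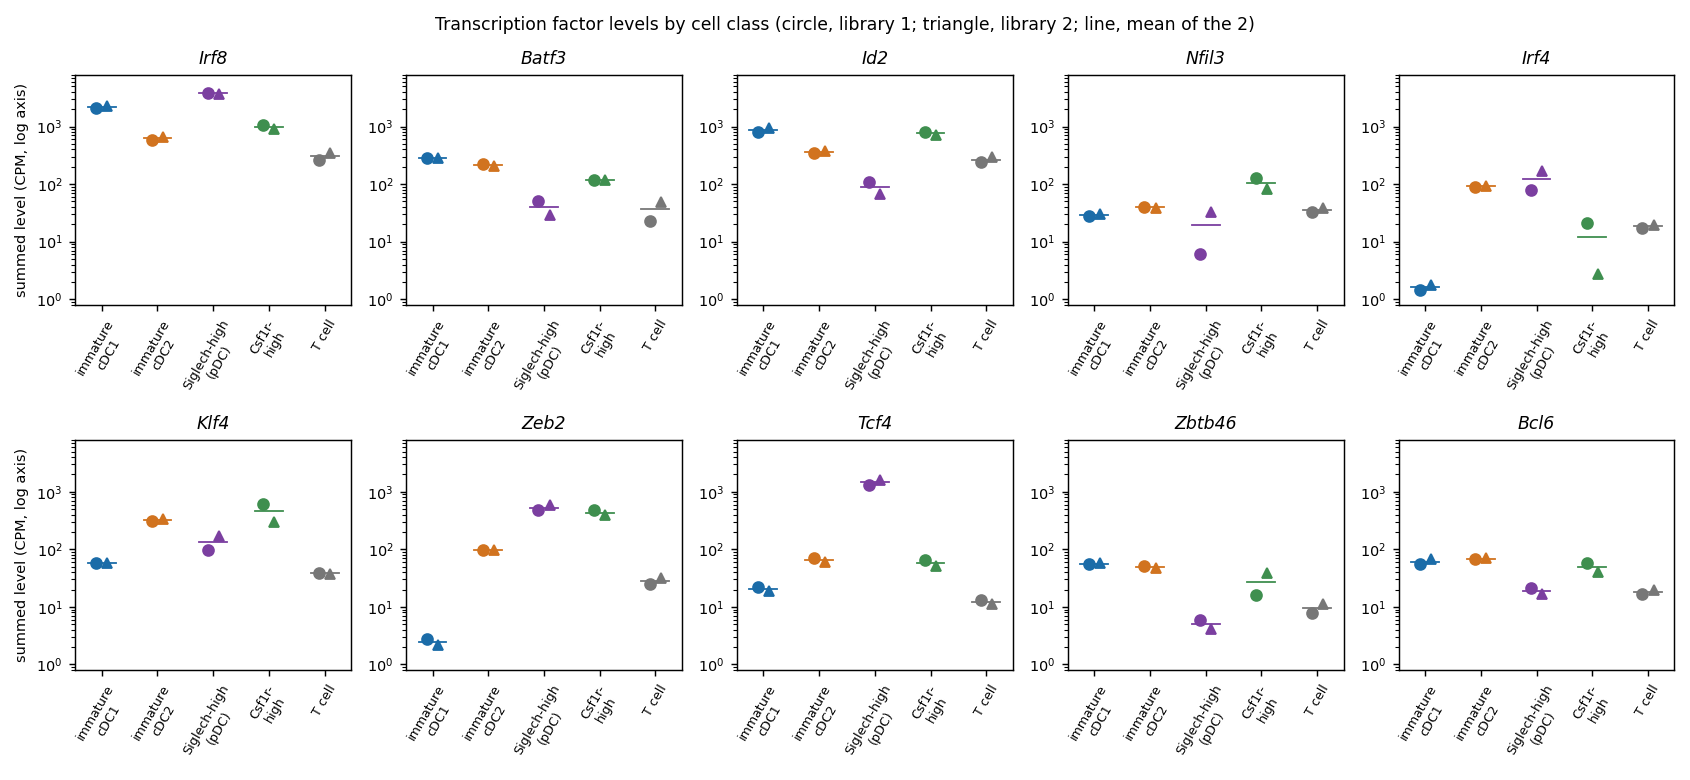
Level of each of the 10 genes (y axis, CPM on a log axis) in immature cDC1, immature cDC2, Siglech-high cells, Csf1r-high cells and T cells (x axis), with a circle for library 1, a triangle for library 2 and a line at their mean. Irf8 and Tcf4 are highest in the Siglech-high cells, and Irf4 and Zeb2 are lowest in immature cDC1.

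The size of the Irf8 difference depended on how sharply the lineages were cut. With at least 4 antibody UMIs and a 4-fold antibody difference, immature cDC2 (1070 and 1133 cells) held Irf8 at 192 and 226 CPM, and the log2 fold change against cDC1 was -3.53. That level is below the T cell level of Irf8. Xcr1 RNA in those cells was 34.1 and 37.0 CPM, against 89.9 and 109 with the main gate and 49.3 and 68.6 in T cells. Id2 in them was 224 and 222 CPM, near its T cell level. That T cell level was 29.4 and 30.7% of the one in immature cDC1, against 12.8 and 15.7% for Irf8 and 10.2 and 12.3% for Xcr1. How much Id2 the T cells made themselves was not tested. Immature cDC1 hardly moved with the stricter gate, with Irf8 at 2102 and 2255 and Id2 at 823 and 959 CPM.

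The share of cells with a UMI was read at equal depth. After thinning every cell to 3000 UMIs, 98.6 and 99.4% of immature cDC1 and 34.8 and 35.2% of immature cDC2 had an Irf8 UMI, against 24.8 and 31.1% of T cells. Before thinning the shares were 99.3 and 99.6% of immature cDC1, 36.0 and 37.6% of immature cDC2 and 24.6 and 28.5% of T cells, whose median depths were 9004 and 8041, 4017 and 3873 and 3113 and 2952 UMIs. Thinned shares for Irf4 were 0.393 and 0.574% of immature cDC1, 21.3 and 22.8% of immature cDC2 and 4.70 and 4.17% of T cells. Unthinned they were 1.27 and 1.36%, 27.4 and 28.8% and 4.88 and 5.81% in that order. Thinned shares for Batf3 were 56.1 and 55.9% of immature cDC1, 43.7 and 40.5% of immature cDC2 and 4.47 and 7.78% of T cells, and unthinned 84.3 and 83.5%, 54.8 and 51.8% and 4.52 and 10.0%. Thinning left out 280.0 and 494 immature cDC1, 289 and 331 immature cDC2 and 394 and 380.0 T cells that were shallower.

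In pDCs 9 of the 10 factors differed from the average of the 2 immature lineages, against 26.1% of genes tested. That average is of log2 levels. Zeb2 and Irf4 are near absent in immature cDC1, so their folds are wider than against immature cDC2 alone. Immature cDC2 held Zeb2 at 98.7 and 99.1 CPM and Irf4 at 88.7 and 92.8. Tcf4, the master regulator of pDCs, was at 1338 and 1604 CPM (log2 5.06, SE 0.10, adjusted p = 1.0e-25). Irf8 was at 3843 and 3659 CPM, above every other class (log2 1.45, SE 0.11, adjusted p = 5.3e-12), and Zeb2 at 479 and 587 (log2 4.81, SE 0.18, adjusted p = 7.2e-19). Irf4 was also higher, at 77.8 and 165 CPM (log2 2.99, SE 0.29, adjusted p = 1.3e-09), which overlapped its level in immature cDC2. Every pDC kept in the thinned set had an Irf8 UMI. The pDC marker list summed to 16302 and 15795 CPM in these cells.

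The factors of conventional DCs were low in the same cells. Id2, the antagonist of TCF4, was at 111 and 66.2 CPM, below T cells (log2 -2.89, SE 0.17, adjusted p = 4.0e-14). Batf3 was at 50.9 and 28.9 CPM, which overlapped its T cell level (log2 -2.83, SE 0.27, adjusted p = 8.8e-10), and Bcl6 at 21.0 and 16.5 (log2 -2.02, SE 0.31, adjusted p = 7.4e-06). Zbtb46 had 2 and 1 UMIs, and its ratio to immature cDC1 was 0.110 (95% interval 0.0133 to 0.397) and 0.0711 (95% interval 0.00180 to 0.396), exact intervals that cover counting error only (fitted log2 -3.59, SE 0.49, adjusted p = 8.5e-07). Nfil3 had 2 and 8 UMIs and a ratio of 0.216 (95% interval 0.0261 to 0.781) in library 1. Its log2 fold change of -1.22 (SE 0.44, adjusted p = 0.0379) was -0.35 without library 1 and -2.71 without library 2, and it missed the threshold under 5 alternatives. Klf4 was at 95.8 and 174 CPM (log2 -0.36, SE 0.23, adjusted p = 0.288). Keeping cells that were marked as doublets brought Id2 to log2 -1.33, Batf3 to -1.88, Zbtb46 to -2.13 and Bcl6 to -1.23.

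The Csf1r-high cells are given by their gate and not called monocytes. The gate's minimum had to be lowered from 5 to 4 Csf1r UMIs to reach 20 cells in each library, and the libraries differed in what it caught. Summed monocyte markers were 7496 and 9151 CPM, but macrophage markers reached 3201 and 1882 and neutrophil markers 53.6 and 12633, and the XCR1 antibody averaged 0.697 and 2.56 UMIs. Against the immature cDC average, again of log2 levels, 6 of 10 factors differed, with a background of 14.2%. Zeb2, at 477 and 395 CPM (log2 4.61, SE 0.20, adjusted p = 6.0e-17), and Klf4, a monocyte factor as well, at 617 and 305 (log2 1.46, SE 0.17, adjusted p = 1.9e-07), were higher. Nfil3 was higher too, at 129 and 82.3 CPM (log2 1.39, SE 0.26, adjusted p = 2.2e-04), and Batf3 lower, at 118 and 118 (log2 -1.23, SE 0.22, adjusted p = 9.9e-05). The Klf4 value was 0.93 without library 1, and the Klf4 level overlapped that of immature cDC2, at 312 and 343 CPM.

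Zbtb46, the factor that sets conventional DCs apart from monocytes, was at 16.1 and 38.4 CPM in the Csf1r-high cells, from 3 and 14 UMIs. Its ratio to immature cDC1 was 0.295 (95% interval 0.0608 to 0.862) in library 1, and its log2 fold change of -0.93 (SE 0.31, adjusted p = 0.0396) missed the threshold under 6 alternatives and was -1.91 without library 2. Irf8 was at 1062 and 916 CPM, log2 -0.40 (SE 0.12, adjusted p = 0.0242), and the sign turned, to 0.38 with the stricter lineage gate. This Irf8 level lay between immature cDC1, at 2057 and 2239 CPM, and immature cDC2, at 594 and 645. Under 7 other alternatives the Irf8 value did not pass, with adjusted p from 0.061 to 0.262, and without library 2 it was -0.25. In a gate chosen after seeing the data, with at least 2 Csf1r UMIs and no C1qa, C1qb or Vcam1 UMI, Irf8 was -0.90 and Id2 -1.11, against 0.25 (SE 0.12, adjusted p = 0.200) for Id2 in the main gate. Irf4 (4 and 1 UMIs, log2 -0.61, SE 0.71, adjusted p = 0.680), Tcf4 (log2 0.47, SE 0.29, adjusted p = 0.353) and Bcl6 (log2 -0.63, SE 0.25, adjusted p = 0.0942) did not pass. Tcf4 passed as higher with marked doublets kept (log2 1.14, adjusted p = 4.1e-04) and in the second gate (log2 0.92, adjusted p = 5.1e-05), and Id2 passed under 3 alternatives, lower in the second gate and higher in the other 2.

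Maturation was read next, within each lineage, as step 3 against step 0. In cDC1, Batf3, Id2, Nfil3, Zeb2 and Irf4 rose and Tcf4 fell, 6 of 10 against a background of 51.8% of genes, which is close to the members' share. In cDC2, Irf8, Batf3, Id2, Nfil3 and Bcl6 rose and Klf4 fell, again 6 of 10, with a background of 23.1%. The median log2 fold change of all genes was -0.14 in cDC1 and -0.22 in cDC2 with TMM scaling, and -0.39 and -0.34 with library totals alone. Batf3, Id2 and Nfil3 passed upward in each lineage.

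Id2 rose in each lineage. In cDC1 it went from 812 and 953 CPM when immature to 2495 and 2464 when late mature (log2 1.74, SE 0.13, adjusted p = 9.6e-13). In cDC2 it went from 344 and 377 to 2006 and 1688 CPM (log2 2.49, SE 0.14, adjusted p = 6.0e-15). The groups were far apart in both lineages, and 96.7 and 84.4% of late mature cDC2 had an Id2 UMI after thinning, against 39.7 and 43.0% of immature ones. Nfil3, a basic leucine zipper factor upstream of ID2 in DC progenitors, went from 27.7 and 30.1 to 97.7 and 80.6 CPM in cDC1 (log2 1.85, SE 0.18, adjusted p = 8.3e-10) and from 40.5 and 38.4 to 104 and 90.1 in cDC2 (log2 1.42, SE 0.32, adjusted p = 0.00105). With thinned cells the cDC2 rise of Nfil3 did not pass (log2 0.42, adjusted p = 0.696). Every fit with thinned cells gated classes and steps anew on the thinned UMIs, so its classes can hold other cells. Thinned shares keep the classes of the main gate. Batf3 went from 286 and 285 to 450.1 and 422 CPM in cDC1 (log2 0.86, SE 0.16, adjusted p = 5.4e-05) and from 220.4 and 204 to 359 and 446 in cDC2 (log2 1.05, SE 0.20, adjusted p = 1.4e-04).

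For Irf8 the lineages differed. In cDC1 it was at 1315 and 1762 CPM when late mature against 2057 and 2239 when immature, lower in both libraries. The log2 fold change of -0.25 (SE 0.13, adjusted p = 0.111) did not pass, but it was -0.49 with library totals alone (adjusted p = 0.00191) and -0.56 with the stricter lineage gate (adjusted p = 0.00192). In cDC2 it rose from 594 and 645 to 696 and 953 CPM (log2 0.53, SE 0.14, adjusted p = 0.00694). The stricter gate gave 192 and 226 CPM immature and 529 and 522 late mature, log2 1.46, while steps at 3 UMIs gave 0.30, which did not pass (adjusted p = 0.175). The cDC1 marker Xcr1 stood at 23.2 and 128 CPM in late mature cDC2 and 93.3 and 123 in late mature cDC1, so library 2 carried as much of it in either class. Cd8a, also on the cDC1 list, stood at 232 and 223 CPM in late mature cDC2 and 394 and 495 in late mature cDC1. The other 11 genes of that list summed to 284 and 607 CPM against 669 and 974. With the stricter gate Xcr1 in late mature cDC2 was 8.53 and 108 CPM. The part of such cDC1 RNA in the Irf8 value was not tested.

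**Figure D2:**
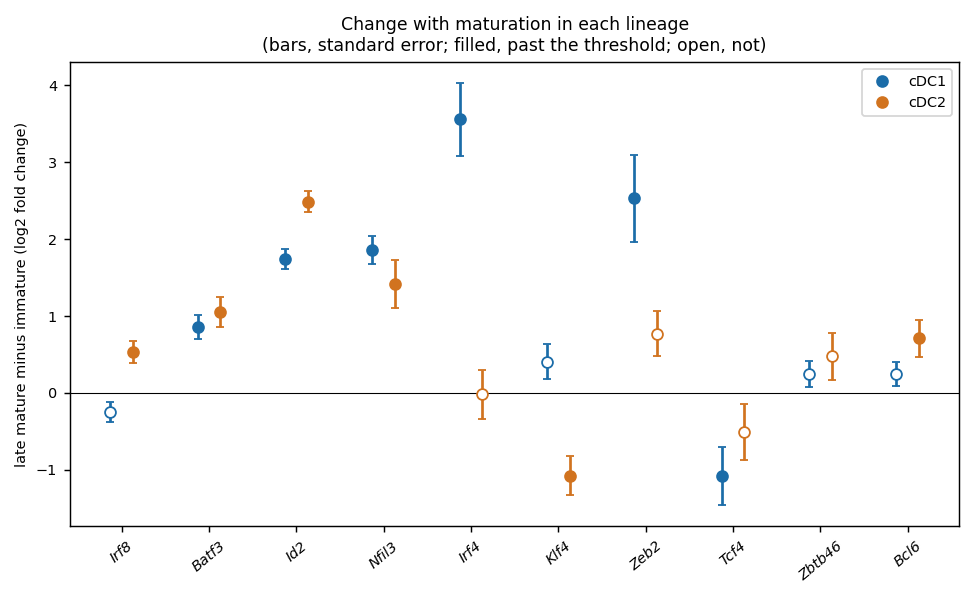
Log2 fold change of late mature over immature cells (y axis) for each gene (x axis) in cDC1 (blue) and cDC2 (orange), with bars for the standard error and filled points past the threshold. Batf3, Id2 and Nfil3 are filled and above 0 in both lineages, and Irf4 and Klf4 lie far apart between them.

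Of the cDC2 factors, Irf4 and Zeb2 rose in cDC1 and Klf4 fell in cDC2. The summed cDC2 markers were also higher in late mature cDC1, at 148 and 173 CPM against 32.1 and 35.2 when immature. The part of cDC2 RNA in the Irf4 and Zeb2 values of cDC1 was not tested. In cDC1, Irf4 went from 1.46 and 1.77 to 14.8 and 17.7 CPM (log2 3.56, SE 0.47, adjusted p = 2.5e-07). That left it below immature and late mature cDC2 and at or under the T cell level, which is no floor for Irf4. Zeb2 in cDC1 went from 2.82 and 2.16 to 16.3 and 8.83 CPM (log2 2.53, SE 0.56, adjusted p = 3.9e-04), on 11 and 8 UMIs, and it missed the threshold with thinned cells and with the stricter gate (adjusted p = 0.0571 and 0.0654). Tcf4 in cDC1 had 3 and 10 UMIs at step 3, at 4.44 and 11.0 CPM against 22.2 and 19.1 (log2 -1.08, SE 0.38, adjusted p = 0.0176). Its ratio to immature cDC1 in library 1 was 0.200 (95% interval 0.0412 to 0.587), the log2 fold change was -0.67 without library 1 and -2.04 without library 2, and 4 alternatives ended the call.

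In cDC2, Klf4 fell from 312 and 343 to 122 and 161 CPM (log2 -1.07, SE 0.26, adjusted p = 0.00219). Irf4 in cDC2 did not pass, at 69.6 and 94.8 CPM late mature against 88.7 and 92.8 immature (log2 -0.02, SE 0.32, adjusted p = 0.982). Zeb2 split the libraries at step 3, with 249 and 75.9 CPM against 98.7 and 99.1 when immature, so library 1 was above and library 2 below the immature level (log2 0.77, SE 0.29, adjusted p = 0.0535). Under 8 alternatives Zeb2 passed as higher, with log2 values from 0.63 to 1.49. Bcl6, at 104 and 104 CPM against 66.8 and 71.4 (log2 0.71, SE 0.24, adjusted p = 0.0285), missed the threshold under 6 alternatives, down to log2 0.12 with thinned cells. In cDC1, Klf4 (78.5 and 55.2 CPM late mature, log2 0.41, SE 0.23, adjusted p = 0.134) and Bcl6 (62.2 and 60.7 CPM, log2 0.24, SE 0.16, adjusted p = 0.213) did not pass, nor did Tcf4 in cDC2 (23.2 and 56.9 CPM, log2 -0.51, SE 0.37, adjusted p = 0.361). Zbtb46 passed in neither lineage, with log2 0.24 (SE 0.17, adjusted p = 0.242) in cDC1 and 0.48 (SE 0.31, adjusted p = 0.301) in cDC2.

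Step by step, cDC1 showed no member past the threshold from step 0 to step 1. In edgeR's quasi-likelihood test 0 of 10 passed, 0 had an unadjusted p under 0.05 (the smallest was 0.0834) and DESeq2 called 0, with a background of 0.452%. The number of all genes called at this step moved from 46 to between 13 and 343 with the settings tried. Ccr7 at step 1 was low (119 and 127 CPM). Irf8 was at 1977 and 2197 CPM and Id2 at 861 and 982, and both overlapped step 0. The log2 fold changes were -0.13 for Bcl6, -0.10 for Zbtb46, -0.06 for Irf8, -0.04 for Batf3, 0.03 for Klf4, 0.04 for Id2, 0.06 for Tcf4 and 0.19 for Nfil3. They were 0.54 for Irf4 and 0.62 for Zeb2, both near absent at either step.

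From step 1 to step 2 of cDC1, 6 of 10 factors changed, against 32.9% of genes. Irf8 dropped to 921 and 1053 CPM (log2 -0.79, SE 0.13, adjusted p = 1.6e-05), and Id2 rose to 1678 and 1582 (log2 1.12, SE 0.13, adjusted p = 2.5e-08). Nfil3 rose to 65.6 and 67.7 CPM (log2 1.28, SE 0.19, adjusted p = 2.6e-06) and Irf4 to 4.75 and 18.8, where the libraries were far apart (log2 2.63, SE 0.49, adjusted p = 9.6e-05). Thinned shares of cells with an Irf8 UMI went from 97.7 and 98.0% at step 1 to 67.7 and 71.3% at step 2 and 88.2 and 93.9% at step 3. T cells stood at 24.8 and 31.1% on this measure, and unthinned shares in cDC1 were 99.1 and 98.6%, 78.3 and 84.6% and 95.3 and 96.5% from step 1 to step 3. Tcf4 fell to 4.75 and 10.6 CPM (log2 -1.17, SE 0.34, adjusted p = 0.00837) and was -1.77 without library 2. The Tcf4 call was lost with steps at 3 UMIs (log2 -0.66, adjusted p = 0.134) and with thinned cells (-1.07, adjusted p = 0.216). Bcl6 passed narrowly (log2 0.39, SE 0.15, adjusted p = 0.0415), was 0.24 without library 1 and missed the threshold under 8 alternatives. Irf4 missed it with thinned cells (log2 1.62, adjusted p = 0.0606). Batf3 (log2 -0.01), Zbtb46 (-0.14), Klf4 (-0.44) and Zeb2 (-0.51) did not pass.

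From step 2 to step 3 of cDC1, 5 of 10 rose, against 21% of genes. Irf8 rose again to 1315 and 1762 CPM (log2 0.60, SE 0.13, adjusted p = 9.9e-04), Batf3 went from 234 and 223 to 450.1 and 422 (log2 0.91, SE 0.17, adjusted p = 2.6e-04) and Id2 to 2495 and 2464 (log2 0.58, SE 0.12, adjusted p = 9.6e-04). The return of Irf8 did not pass with the stricter lineage gate (log2 0.21, adjusted p = 0.421) or with steps at 3 UMIs (0.37, adjusted p = 0.0672). Zeb2 (log2 2.42, SE 0.84, adjusted p = 0.0376) started from 3 and 2 UMIs at step 2, where its ratio to immature cDC1 was 1.01 (95% interval 0.206 to 3.01) and 0.755 (95% interval 0.0906 to 2.77). Klf4 (log2 0.82, SE 0.30, adjusted p = 0.0477) was 0.53 without library 1. Zeb2 lost its call under 5 alternatives, Klf4 under 6, and Batf3 and Id2 under 2 each. Bcl6 (log2 -0.02), Tcf4 (0.03), Nfil3 (0.37), Irf4 (0.39) and Zbtb46 (0.48) did not pass.

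In cDC2, Irf8 was the 1 member of 10 past the threshold from step 0 to step 1, with a background of 1.96%. It fell from 594 and 645 to 289 and 431 CPM (log2 -0.79, SE 0.13, adjusted p = 6.4e-04). With the stricter lineage gate it was 192 and 226 CPM at step 0 and 193 and 182 at step 1 and did not pass (log2 -0.13, adjusted p = 0.942), and it was lost too when marked doublets were kept (log2 -0.45). Xcr1 was 89.9 and 109 CPM at step 0 and 55.6 and 95.2 at step 1 in the main gate, lower in both libraries. Nfil3 just missed the threshold (log2 0.59, SE 0.16, adjusted p = 0.0507) and passed under 6 alternatives. The other log2 values were -0.19 for Id2, -0.13 for Bcl6, -0.01 for Batf3, 0.04 for Zbtb46, 0.15 for Zeb2, 0.20 for Klf4, 0.25 for Tcf4 and 0.36 for Irf4.

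From step 1 to step 2 of cDC2, 4 of 10 changed, against 8.28% of genes. Id2 rose from 289.8 and 338 to 991 and 913 CPM (log2 1.72, SE 0.13, adjusted p = 1.1e-10), Zeb2 from 104 and 115 to 204 and 212 (log2 1.05, SE 0.18, adjusted p = 2.0e-04) and Nfil3 from 63.9 and 53.6 to 79.7 and 102 (log2 0.75, SE 0.20, adjusted p = 0.0141). Both libraries showed each rise. The Nfil3 value was 0.42 without library 2 and lost its call under 3 alternatives. Tcf4 fell to 42.0 and 43.2 CPM (log2 -0.72, SE 0.22, adjusted p = 0.0358), also with 3 alternatives that ended the call, 1 of them DESeq2. Irf8 was at 255 and 407 CPM, close to its T cell level, and did not pass. Irf4 (log2 -0.18), Klf4 (-0.17), Zbtb46 (0.32), Batf3 (0.40) and Bcl6 (0.44) did not either, though Batf3 passed under 3 alternatives and Bcl6 under 2.

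From step 2 to step 3 of cDC2, 4 of 10 changed, against 9.2% of genes. Irf8 rose to 696 and 953 CPM (log2 1.32, SE 0.16, adjusted p = 5.0e-07) and did so with the stricter lineage gate too, from 172 and 281 to 529 and 522 CPM (log2 1.23, adjusted p = 6.3e-05). Thinned shares with an Irf8 UMI were 30.4 and 38.5% at step 2 and 76.7 and 65.6% at step 3, and unthinned 33.9 and 42.2% and 75.7 and 59.6%. Id2 rose to 2006 and 1688 CPM (log2 0.96, SE 0.13, adjusted p = 8.0e-06) and Batf3 to 359 and 446 (log2 0.66, SE 0.21, adjusted p = 0.0423), whose call 3 alternatives ended. Klf4 fell from 275 and 337 to 122 and 161 CPM (log2 -1.11, SE 0.27, adjusted p = 0.00684), with 1 alternative, thinned cells, that ended the call. Zeb2 (log2 -0.43), Irf4 (-0.19), Tcf4 (-0.04), Nfil3 (0.08), Zbtb46 (0.12) and Bcl6 (0.40) did not pass. Neighbouring steps share a class, so their changes are not independent of each other.

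**Figure D3:**
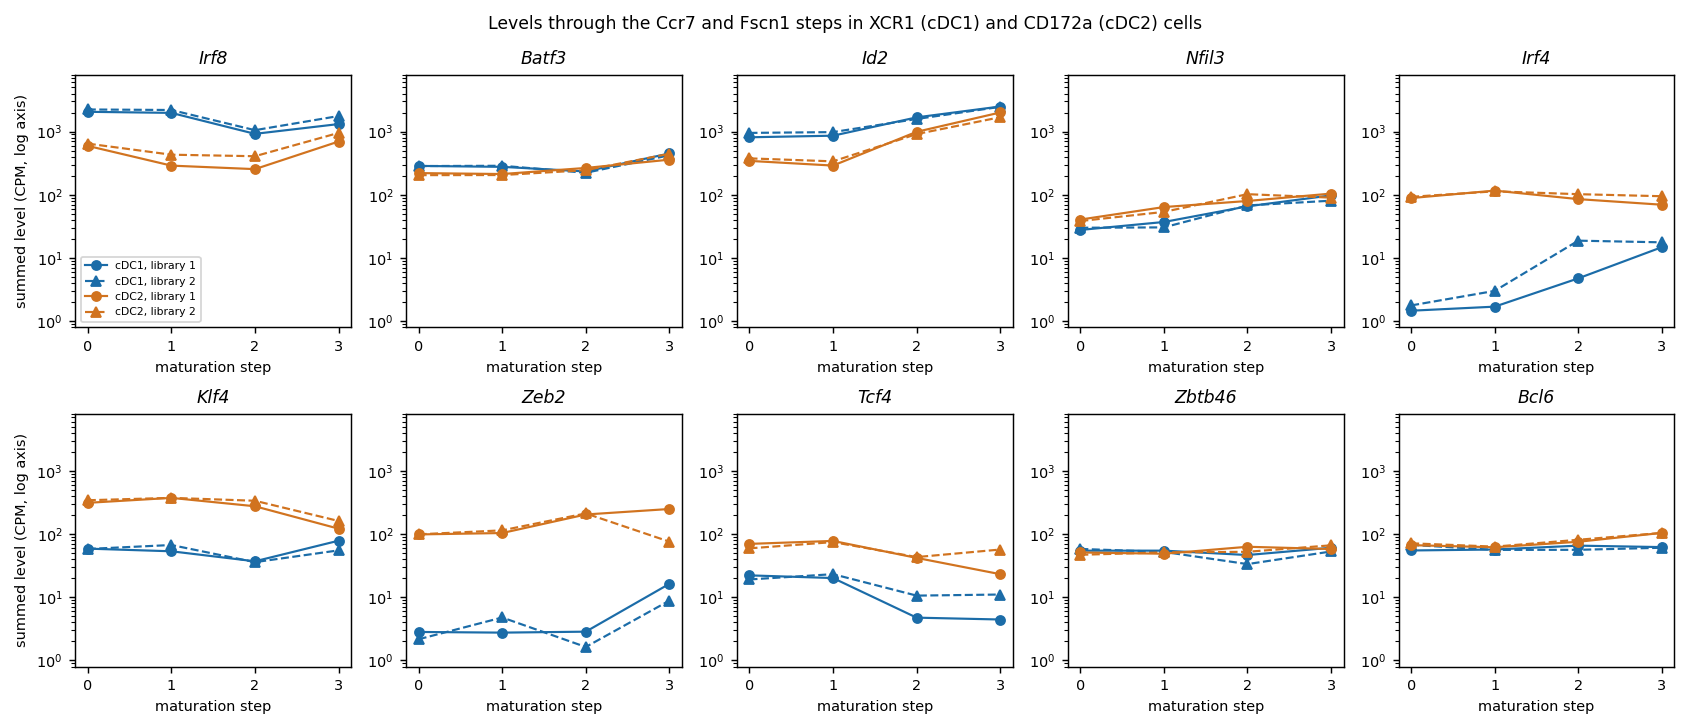
Level of each gene (y axis, CPM on a log axis) at steps 0 to 3 (x axis) in cDC1 (blue) and cDC2 (orange), with circles and full lines for library 1 and triangles and dashed lines for library 2. Id2 climbs from step 1 in both lineages, Irf8 is lowest at step 2 of cDC1 and at steps 1 and 2 of cDC2, and Irf4 in cDC1 stays under its cDC2 level at every step.

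The last question was whether late mature cells keep their lineage differences. Of the 10 factors, 5 separated late mature cDC2 from late mature cDC1, against 6.22% of genes, with a median over all genes of -0.12 by TMM and 0.08 by library totals. Irf8 was at 696 and 953 CPM in late mature cDC2 and 1315 and 1762 in late mature cDC1 (log2 -1.16, SE 0.15, adjusted p = 2.6e-06). Id2 was at 2006 and 1688 CPM in late mature cDC2 and 2495 and 2464 in late mature cDC1 (log2 -0.69, SE 0.13, adjusted p = 9.6e-04), a difference of -0.43 with library totals alone and past no threshold when marked doublets were kept (log2 -0.39, adjusted p = 0.122). Both genes were lower in cDC2 in both libraries. With marked doublets kept, the Irf8 difference was -0.71.

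Zeb2 was at 249 and 75.9 CPM in late mature cDC2 and 16.3 and 8.83 in late mature cDC1 (log2 3.42, SE 0.46, adjusted p = 7.5e-06). Irf4 was at 69.6 and 94.8 CPM in cDC2, on 12 and 20 UMIs, and 14.8 and 17.7 in cDC1, on 10 and 16 (log2 2.08, SE 0.46, adjusted p = 0.00423). Tcf4 was at 23.2 and 56.9 CPM in cDC2, on 4 and 12 UMIs, and 4.44 and 11.0 in cDC1, on 3 and 10 (log2 2.08, SE 0.57, adjusted p = 0.0232). For all 3 the groups did not overlap, with the higher level in cDC2. With thinned cells Irf4 and Tcf4 did not pass (adjusted p = 0.335 and 0.0570), and Tcf4 did not with the stricter gate (0.175). Klf4 was at 122 and 161 CPM in cDC2 and 78.5 and 55.2 in cDC1 (log2 0.86, SE 0.34, adjusted p = 0.146) and passed under 3 alternatives. Batf3 (log2 -0.37, SE 0.20, adjusted p = 0.337), Nfil3 (-0.13, SE 0.30, adjusted p = 0.898), Zbtb46 (-0.11, SE 0.32, adjusted p = 0.925) and Bcl6 (0.50, SE 0.26, adjusted p = 0.327) did not pass.

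**Figure D4:**
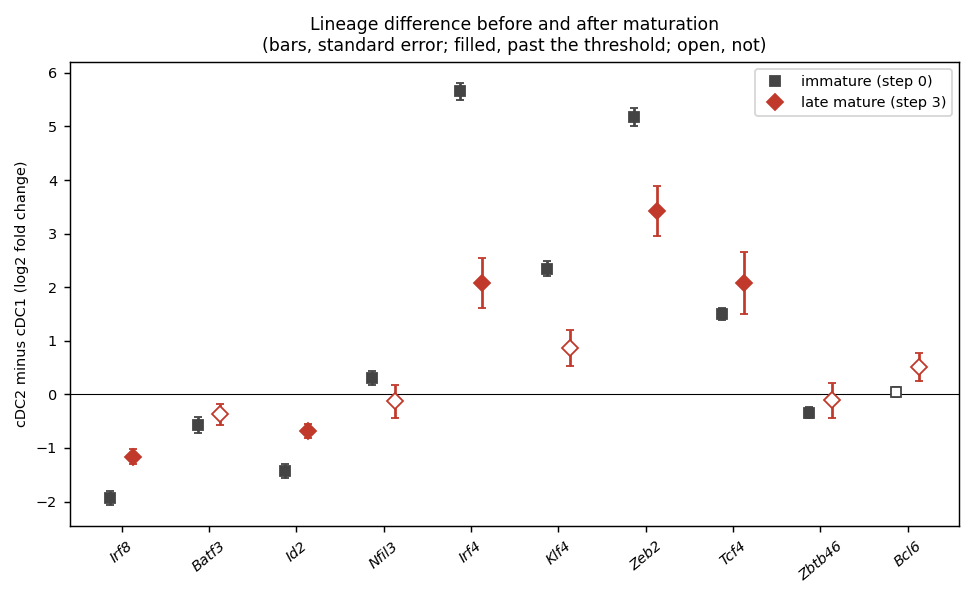
Log2 fold change of cDC2 over cDC1 (y axis) for each gene (x axis) among immature (squares) and late mature cells (diamonds), with bars for the standard error and filled symbols past the threshold. Irf8, Id2, Irf4, Zeb2 and Tcf4 are filled, with the same sign, before and after maturation. The sign turns for Nfil3 alone. In late mature cells the difference is smaller in size for all genes but Tcf4 and Bcl6.

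The change of the lineage difference itself was tested as an interaction, and 4 of 10 factors passed, against 5.18% of genes. The cDC2 minus cDC1 difference of Irf4 shrank, with a change of log2 -3.57 (SE 0.53, adjusted p = 2.7e-05), and that of Klf4 likewise, by -1.48 (SE 0.35, adjusted p = 0.00760). The deficits of Irf8 and Id2 in cDC2 shrank too, with changes of 0.78 (SE 0.19, adjusted p = 0.0128) and 0.75 (SE 0.18, adjusted p = 0.00950). For Irf8 the change missed the threshold without the library block (0.78, adjusted p = 0.0875) and with steps at 3 UMIs, and for Klf4 with the stricter lineage gate (adjusted p = 0.0644). Zeb2 did not pass (-1.76, SE 0.58, adjusted p = 0.0799) but did under 4 alternatives. Batf3 (0.19), Nfil3 (-0.44), Tcf4 (0.57), Zbtb46 (0.23) and Bcl6 (0.47) did not pass. The median change over all genes was -0.14.

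Many late mature cells lay outside these 2 lineage classes. Of 783 cells with at least 5 UMIs of Ccr7 and of Fscn1, 122 (15.6%) were marked as doublets, against 5.90% of all cells. Of the 661 kept, 250 were cDC1, 84 cDC2, 206 met the antibody rule of neither lineage and 121 fell outside the cDC gate. The 206 unplaced cells held Irf8 at 1505 and 1562 CPM and Id2 at 2824 and 2632. Their Irf4 was 24.2 and 21.1 CPM and their Klf4 93.4 and 78.2, and Zeb2 was 9.66 and 27.5. For Irf8 and Irf4 these levels are nearer to late mature cDC1 than to late mature cDC2 of the same library, and Zeb2 in library 2 lies between. The XCR1 antibody averaged 3.98 and 4.43 UMIs in late mature cDC1 against 6.89 and 6.69 in immature cDC1, and the 206 unplaced cells averaged 0.882 and 0.938.

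Around the members, 2 lists of related factors were read in the same fits. For either list the background is the share of all genes past the threshold. It was 45.1% between immature lineages, 26.1% in pDCs and 14.2% in Csf1r-high cells. Of 14 partners and opposing factors (E proteins, ID proteins, AP-1 members, PU.1 and corepressors), 12 were tested. In immature cDC2 against cDC1, 6 were higher and 2 lower (median log2 0.26, all genes -0.03). Id3, an ID2 relative, was at 4.54 and 5.58 CPM in immature cDC2 against 1.02 and 1.35 in cDC1 (log2 1.93, SE 0.32, adjusted p = 1.0e-05), and the corepressor Ctbp2 at 7.98 and 8.45 against 18.5 and 18.8 (log2 -1.32, SE 0.14, adjusted p = 4.6e-09). The other 2 named were the corepressor Bcor (log2 0.86) and the AP-1 member Jun (log2 0.83). In pDCs 3 were higher and 3 lower (median 0.06, all genes -0.09). The E protein gene Tcf12 stood at 209.5 and 256 CPM in pDCs against 23.0 and 23.2 in immature cDC1 (log2 3.24, SE 0.18, adjusted p = 3.6e-15 against the average of both immature lineages), Id3 at log2 2.56, PU.1 (Spi1) at -2.23 and Junb at -1.99. Among Csf1r-high cells 0 were higher and 1, Spi1, lower (log2 -0.39, SE 0.11, adjusted p = 0.0182; list median -0.11, all genes -0.08).

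Of all genes, 51.8% passed with maturation in cDC1, 23.1% in cDC2, 6.22% between late mature lineages and 5.18% in the interaction. With maturation, 5 of the 12 partners rose in cDC1 and 0 fell (median log2 0.30, all genes -0.14). Batf, a BATF3 relative, went from 13.7 and 14.2 to 41.5 and 44.2 CPM (log2 1.86, SE 0.25, adjusted p = 2.2e-07), the E protein gene Tcf3 rose by log2 1.65 (SE 0.21, adjusted p = 1.2e-07), and Bcor and Junb changed by log2 1.53 and 1.23. In cDC2 0 rose and 1 fell, Spi1 (log2 -0.42, SE 0.13, adjusted p = 0.0206; list median 0.18, all genes -0.22). Between late mature cDC2 and cDC1, Jun was higher (log2 0.80, SE 0.17, adjusted p = 0.00321) and Ctbp2 lower, at 0 CPM in late mature cDC2 and 13.3 and 11.0 in late mature cDC1. Since 3 UMIs in late mature cDC2 would be 17.4 and 14.2 CPM, no fold is given for Ctbp2. The list's median there was -0.19 (all genes -0.12), and in the interaction 1 passed, Junb (log2 -0.95, SE 0.17, adjusted p = 2.7e-04; list median -0.53).

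Of 36 other DC and monocyte transcription factors, 35 were tested. In immature cDC2, 22 were higher and 4 lower (median log2 0.66), where 45.1% of all genes passed. Among the widest differences were Spib (5.46), an ETS factor of pDCs and B cells, Tbx21 (3.81) and Prdm1 (3.15). In pDCs 9 were higher and 12 lower (median -0.31), led by Spib, at 335 and 211 CPM, and Runx2, at 578 and 666 against 5.22 and 5.33 in immature cDC1 (log2 5.76, SE 0.16, adjusted p = 2.2e-22 against the average of both lineages). Zfp366 (-3.37) and Etv3 (-2.70) were the lowest. In Csf1r-high cells 6 were higher, among them the myeloid factor Cebpb (log2 4.12) and Prdm1 (3.96), and 9 lower, with Zeb1 at -1.74. The median of that list was within 0.01 of 0.

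Late maturation moved 19 of these 35 factors up and 9 down in cDC1 (median log2 0.65), where 51.8% of all genes passed. In cDC2 15 rose and 7 fell (median 0.39), where 23.1% passed. Relb, of the noncanonical NF-kB pathway, went from 28.6 and 32.3 to 847 and 691 CPM in cDC1 (log2 4.90, SE 0.16, adjusted p = 2.1e-21) and from 154 and 160.2 to 939 and 939 in cDC2 (log2 2.71, SE 0.15, adjusted p = 1.4e-14). The ETS repressor Etv3 rose by log2 3.23 in cDC1 and 2.88 in cDC2, and Spib by 5.89 and 3.12. Irf1, an interferon regulatory factor, was among the 4 named in cDC1 (log2 4.08) and Prdm1 among those in cDC2 (2.98). Between late mature cDC2 and cDC1, 4 were higher and 4 lower (median within 0.01 of 0), with Spib (2.68) and Runx3 (1.28) higher and Irf1 lower (-1.08). Tbx21 was at 5.80 and 19.0 CPM in late mature cDC2 and 0 in late mature cDC1, where 3 UMIs would be 4.44 and 3.31 CPM. In the interaction 0 were positive and 8 negative (median -0.40), with Spib (-2.77), Relb (-2.20), Nfkb1 (-1.45) and Irf1 (-1.44) the widest.

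At single steps the counts were smaller. Of all genes, 0.452% passed from step 0 to 1 of cDC1 and 1.96% of cDC2. The shares were 32.9% and 8.28% from step 1 to 2, and 21% and 9.2% from step 2 to 3. From step 0 to 1, none of the 12 partners passed in either lineage, and of the 35 other factors Relb alone rose in cDC1 (log2 0.69), while Relb (0.98), Etv3 (0.71), Nr4a3 (0.59) and Rel (0.56) rose in cDC2. From step 1 to 2 of cDC1, 4 partners rose and 1 fell (list median -0.09, all genes -0.04), with Batf (2.26), Bcor (1.40), Junb (0.72) and Jun (-0.40) the widest. Of the other factors 18 rose and 3 fell, led by Relb (3.54), Stat5a (2.65), Etv3 (2.64) and Nfkb2 (2.24). In cDC2 no partner passed there, and 14 of the other factors rose and 1 fell, led by Prdm1 (2.19), Spib (1.70), Etv3 (1.51) and Relb (1.42).

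From step 2 to 3 of cDC1, 4 partners rose, among them Tcf3 (1.89), Jun (0.57) and Junb (0.48). Of the other factors 10 rose and 11 fell, with Spib (2.91) and Irf1 (1.91) up and Ikzf1 (-1.74) and Irf7 (-1.63) down. In cDC2, 2 partners fell, Spi1 (-0.72) and Jund (-0.44), and the other factors split 4 to 4, with Irf1 (2.47) and Klf6 (0.96) up and Ahr (-1.61) and Runx3 (-1.13) down.

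For each member up to 3 genes with the most similar profile are given, taken from 7516 genes over 22 profiles, 11 classes in 2 libraries, by Pearson's r of log2(CPM + 1). The profiles share libraries and depth, and r is a description. For Irf8 they were Mpeg1 (r = 0.94), Rrbp1 (r = 0.89), Mras (r = 0.89), for Batf3 Zbtb46 (r = 0.94), Rab30 (r = 0.93), Bcl6 (r = 0.92), for Id2 Trafd1 (r = 0.96), Cxcl16 (r = 0.95), Apol7c (r = 0.94) and for Nfil3 Zfand3 (r = 0.90), Dleu2 (r = 0.89), Rufy3 (r = 0.88). Batf3 and Zbtb46 each stood among those of the other. For Irf4 they were Gpm6b (r = 0.91), Ddx5 (r = 0.87), Lysmd2 (r = 0.86), for Klf4 Adgre1 (r = 0.94), Ap1s2 (r = 0.93) and for Zeb2 Cybb (r = 0.96), Fcer1g (r = 0.96), Fyb (r = 0.94). For Tcf4 they were Dnajc7 (r = 0.94), Lifr (r = 0.94), Atraid (r = 0.93), for Zbtb46 Sh3bp1 (r = 0.94), Batf3 (r = 0.94), Efhd2 (r = 0.93) and for Bcl6 Cd83 (r = 0.95), Nectin1 (r = 0.94), Nav1 (r = 0.94).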

How the data were processed

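The deposited matrix holds raw UMI counts, whole numbers for every cell and every gene or antibody, from both libraries. Per the file headers it was written by Cell Ranger 3.1.0, and the submitters' processing notes name STAR, Cell Ranger, Seurat 3.1.4 and mm10. The sources used here do not say whether depth was equalised between libraries. Libraries are numbered by barcode suffix, which the labels do not tie to a replicate number.

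Cells were kept from 500 genes and 1000 RNA UMIs upward where mitochondrial UMIs made up less than 10%. Scrublet in scanpy 1.11.5 marked 613 and 1143 doublets, which were removed, leaving 12099 and 15897 cells, and 61 barcodes occur in both libraries. Siglech-high cells had at least 5 Siglech UMIs and T cells at least 3 UMIs of Cd3d, Cd3e and Cd3g together. Conventional DCs had at most 1 UMI of Siglech, of Csf1r and of 8 lymphoid genes together, and at least 20 of H2-Aa, H2-Ab1 and Cd74. Cells of step combinations not listed were left out.

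UMIs were summed per class and library and fitted for all 11 classes together with edgeR 4.0.16 in R 4.3.3 (TMM, filterByExpr, quasi-likelihood, two-sided, library as block, Benjamini-Hochberg over 10183 genes). The block stands because every class of a library comes from the same pool of cells. Deviations of the classes from their means correlated from -0.06 to 0.33 over 55 pairs of classes (median 0.03). Standard errors are the log2 fold change over the square root of F. The test was tried on simulated data. DESeq2 1.42.0 was an alternative. In the alternative with thinned cells, classes and steps were gated anew on the thinned UMIs, so it is no check of depth on the same cells. All 10 members are named in every comparison. From each other list up to 4 genes past the threshold with the largest absolute log2 fold change are named, and some genes of these rules are not reported here. The members and lists were chosen with earlier results of these data known. Intervals of ratios are exact conditional 95% intervals.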

Additional observations from a re-analysis of the deposited data

Results flagged for a closer look

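In 4 of the 10 genes the change with maturation differed between cDC2 and cDC1 in the test of that difference itself. The cDC2 minus cDC1 difference changed by log2 -3.57 for Irf4, -1.48 for Klf4, 0.78 for Irf8 and 0.75 for Id2. For Irf4 the rise came in cDC1, from near 0 to 14.8 and 17.7 CPM, and the part of cDC2 RNA in it was not tested. T cells held 17.2 and 19.5 CPM, which is no floor for Irf4, since immature cDC1 held 1.46 and 1.77. For Irf8 the change was 2.02 with the stricter lineage gate and 1.24 with thinned cells, and for Id2 it was 1.52 with the stricter gate.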

How the results depend on the processing

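Of 130 member results, 65 passed the threshold, 37 of them under every alternative with a test for them (12 to 14 of the 15 tried), while 28 lost it under at least 1 and 14 others gained it. Leaving out a library gives values with no test, and no called value changed sign. All alternatives were listed together with the tests except the second Csf1r gate, chosen after seeing the data. A value past the threshold, in the main setting or the alternative, turned direction in 4 cases, and the cause was not tested. Where neither value passed, the sign turned 74 times, over 31 of the 65 results not past the threshold. In Csf1r-high cells Irf8 went to 0.38 with the stricter lineage gate and, in the second gate, Id2 to -1.11 and Irf4 to 0.94. Batf3 from step 1 to 2 of cDC1 went to 0.44 with thinned cells.

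Counts of calls over all genes and members moved over 1.5 times as follows, and the cause was not tested. From step 0 to 1 of cDC1 the 46 genes became 95 without a filter on low counts, 25 with the stricter lineage gate, 124 with steps at 10 UMIs, 13 at 3 UMIs, 343 with thinned cells, 74 without the lymphoid and MHC class II gate and 321 when only the compared classes were fitted. In the same settings the 200 genes of that step in cDC2 became 35 (stricter lineage), 326 (10 UMIs), 71 (3 UMIs), 355 (no gate) and 404 (compared classes). Its 1 member became 0 with doublets kept or the stricter lineage gate, 2 with stricter cells, no filter, DESeq2, 10 UMIs or thinned cells, and 3 with the compared classes. From step 1 to 2, thinned cells gave 2149 genes for 3348 in cDC1. In cDC2, 843 genes became 1541 (10 UMIs) and 380 (3 UMIs), and 4 members became 2 (stricter lineage, 3 UMIs). From step 2 to 3 of cDC1, 2136 genes and 5 members became 1357 and 2 (doublets kept), 1050 and 2 (stricter lineage), 705 and 1 (10 UMIs) and 545 and 2 (thinned). In cDC2, 937 genes became 521 (stricter lineage), 1499 (3 UMIs), 482 with 2 of 4 members (thinned) and 510 (compared classes).

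Late mature against immature, 5274 genes in cDC1 became 3398 (stricter lineage) and 3510 (thinned), and 2354 in cDC2 became 1530 and 1422. Between the late mature classes 633 genes became 1185 (3 UMIs), 310 with 3 of 5 members (thinned) and 229 (compared classes). The interaction's 527 genes became 332 with doublets kept. The classes of a library are paired, and without the replicate block 123 genes in place of 200 passed from step 0 to 1 of cDC2. Member calls lost without it were Nfil3 between immature lineages, Irf8 in Csf1r-high cells and in the interaction, Klf4 at step 3 of cDC1 and Batf3 at step 3 of cDC2. The share of calls that were higher was 49.6% between immature lineages and 66.6% with library totals alone, 48.7% and 37.3% in late mature cDC1, 33.0% and 70.1% between late mature classes, 49.5% and 70.1% in pDCs, 59.8% and 76.3% in Csf1r-high cells, 54.4% and 29.0% from step 1 to 2 of cDC1, 74.9% and 54.0% there in cDC2, and 18.4% and 30.5% in the interaction. The median of all genes moved from -0.09 to 0.18 in pDCs, -0.08 to 0.08 in Csf1r-high cells and -0.04 to -0.33 at step 2 of cDC1. Steps at 10 UMIs left no late mature cDC2 class, and gates at 10 UMIs and thinned cells no Csf1r-high class, so those comparisons were not run. Depth limits the pDC, Csf1r-high and step 2 cDC1 values, where several of the genes rest on under 10 UMIs in a library. It limits the late mature classes as well. Late mature cDC2 of library 1 had the smallest class sum, 172512 UMIs, where 3 UMIs are 17.4 CPM. In library 1 Tcf4 rested on 4 UMIs in late mature cDC2 and on 3 in late mature cDC1.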

Other observations

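Pairs of the genes were also read within single cells thinned to 3000 UMIs, as shares with no test. In pDCs Id2 and Tcf4, an antagonist and its target, were both seen in 12.5 and 20.4% of cells, and Tcf4 without Id2 in 82.8 and 79.6%. Tcf4 was in 95.3 and 100% of these pDCs, so the joint share follows that of Id2, 14.1 and 20.4%. Irf8 and Irf4 were seen together in 12.5 and 33.3% of pDCs and in 0.393 and 0.574% of immature cDC1. No cell of these classes had Irf4 without Irf8, so these are the shares of Irf4 alone. In late mature cDC2 the 2 genes were seen together in 13.3 and 12.5%, of 30 and 32 cells, against 4.23 and 4.19% when immature. Irf8 with or without Irf4 was in 76.7 and 65.6% of late mature cDC2 and 34.8 and 35.2% of immature cDC2. Id2 and Zeb2 were seen together in 6.59 and 8.64% of immature cDC2, 24.8 and 23.0% at step 2 and 36.7 and 12.5% at step 3. Irf8 and Batf3 were seen together in 55.7 and 55.7% of immature cDC1, 33.8 and 31.5% at step 2 and 64.7 and 65.9% at step 3. T cells had both in 2.01 and 3.89%.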
